A study of Mus musculus with 40 samples.

Results

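The gene set comprised 54 mouse genes for mitosis, the spindle and the kinetochore, measured on Affymetrix arrays of CD4 T cells from C57Bl/6 mice. A member was any probe set annotated to 1 listed gene or its older alias, and a gene with several probe sets was represented by the one with the highest mean over the arrays of its platform. The members were listed by function. In the sorted T cell experiment 53 of the 54 members were measured among 18194 genes tested, with Ccnb1 (cyclin B1) not named by the annotation. In the ligand experiment 52 were measured among 17097 genes, without Ccnb1 and Nuf2. No filter on low values was applied.

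The sorted experiment had 8 arrays. Foxp3-GFP reporter mice supplied regulatory T cells (Treg), sorted as CD4+ CD45RBlow GFP+, and conventional T cells (Tconv), sorted as CD45RBhi GFP-. The groups were Treg activated with antibodies to CD3 and CD28 (n = 3), resting Treg (n = 3) and resting Tconv (n = 2), each cultured for 48 h, the resting groups without stimulation. Their labelled tissue is bone marrow. The ligand experiment had 32 arrays of Treg sorted from spleen and lymph nodes of Foxp3-YFP-iCre mice, either wild type (WT) or Nrp fl/fl (KO), in which the Cre recombinase is driven by the Treg gene Foxp3. Every culture of this experiment received immobilised anti-CD3 at 1 µg/mL, soluble anti-CD28 at 2 µg/mL and recombinant human IL-2 at 100 U/mL, with either immobilised Sema4a-Ig or mouse IgG1 at 10 µg/mL (8 arrays per genotype and ligand). Sema4a-Ig is a soluble form of semaphorin 4a, a ligand of neuropilin-1, the receptor that Nrp1 encodes. No label or note used here states the animals' ages or the culture time of the ligand experiment. The labels also do not say whether replicates were separate animals or cultures, so the p-values measure only the spread between these samples.

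Mitosis separates the copied chromosomes of a dividing cell. Cyclin A and B with the kinase CDK1 start it, Polo-like and Aurora kinases build the spindle, the kinetochore joins chromosomes to spindle microtubules, and the spindle checkpoint holds back the anaphase-promoting complex (APC/C) until every chromosome is attached. Most of these genes are transcribed little in resting T cells and strongly late in the cycle of dividing ones, so their summed RNA in a bulk sample follows both the number of cycling cells and the RNA per cell. These cannot be told apart in bulk arrays.

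Many promoters of such genes hold a cell cycle genes homology region (CHR), an element read by MuvB complexes, together with CCAAT boxes bound by NF-Y. Promoters from 250 bases before to 50 bases after the transcription start were available in the RefSeq table (GRCm38.p6) for 44 of the 54 members and 27025 genes in all. The CHR was searched as TTTGAA or TTCGAA and the second element as CCAAT, both on either strand; a CCAAT box and a CHR can share their end base. A CHR was present in 33 of 44 members (75%) and in 5854 of 27025 genes (21.7%). A CCAAT box was present in 32 of 44 members (72.7%) and in 41.1% of all genes. Both stood in 1 promoter in 28 members (63.6%) and in 8.61% of all genes. A gene counted as holding a motif where any of its listed promoters did; over the 32851 promoters themselves, 19.2% held a CHR, 37.4% a CCAAT box and 7.52% both.

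The CHR matches of the members lay close to the transcription start. In the bin of 1 to 50 bases after the start 47.7% of the members and 2.87% of all genes had a match, and in the 50 bases before it 25% and 3.49% did. CCAAT boxes lay further upstream: 43.2% of members had one from 100 to 51 bases before the start and 47.7% in the 50 bases before it, against 14.4% and 10.5% of all genes. With only the 150 bases before the start searched, the member shares were 34.1% for the CHR (11.2% of all genes) and 68.2% for CCAAT (27.7%).

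Of 84 genes from other mitotic lists with a promoter entry 47.6% held a CHR, 61.9% a CCAAT box and 34.5% both. Of 31 genes of a DNA replication list 6 (19.4%) held a CHR, 19 (61.3%) held a CCAAT box and 13 (41.9%) held 1 of 3 E2F-type sequences, TTTCCCGC, TTTGGCGC or TTTCGCGC on either strand. The same E2F-type sequences were found in 2 of 44 members (4.55%) and in 2.12% of all genes. A match describes letters in this window and is not evidence that a factor binds there.

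The 150 bases before the start are shown for 7 of the 11 members that held both elements there (25% of members, 2.85% of all genes), because both elements can be read in one stretch; capitals mark CHR and CCAAT matches on either strand, each run is written 5′ to 3′ on the strand of the gene and ends at the base before the start.
Cdk1: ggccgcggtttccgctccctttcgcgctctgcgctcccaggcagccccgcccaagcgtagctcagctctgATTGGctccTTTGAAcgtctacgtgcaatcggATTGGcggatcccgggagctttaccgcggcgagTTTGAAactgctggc
Top2a: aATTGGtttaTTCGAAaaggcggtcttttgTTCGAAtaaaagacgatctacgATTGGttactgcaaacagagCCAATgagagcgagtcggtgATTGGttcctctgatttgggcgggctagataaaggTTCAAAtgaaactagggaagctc
Mki67: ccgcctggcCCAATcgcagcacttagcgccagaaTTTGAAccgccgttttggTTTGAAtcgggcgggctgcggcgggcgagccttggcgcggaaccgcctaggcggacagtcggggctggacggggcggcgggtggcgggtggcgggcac
Cdc20: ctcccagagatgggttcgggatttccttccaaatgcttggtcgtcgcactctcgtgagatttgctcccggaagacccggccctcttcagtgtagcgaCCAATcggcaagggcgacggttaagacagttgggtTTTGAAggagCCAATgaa
Ube2c: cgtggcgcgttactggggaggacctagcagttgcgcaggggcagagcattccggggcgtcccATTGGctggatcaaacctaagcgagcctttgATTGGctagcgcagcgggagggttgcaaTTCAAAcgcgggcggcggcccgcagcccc
Kif11: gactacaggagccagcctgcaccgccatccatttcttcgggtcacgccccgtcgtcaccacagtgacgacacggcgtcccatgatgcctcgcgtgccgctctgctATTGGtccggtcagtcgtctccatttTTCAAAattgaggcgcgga
Prc1: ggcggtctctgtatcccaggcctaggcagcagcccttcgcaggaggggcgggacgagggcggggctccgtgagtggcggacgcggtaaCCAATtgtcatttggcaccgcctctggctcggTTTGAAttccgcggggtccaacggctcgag

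The Cdk1 stretch is chr10:69352913-69353062, minus strand. The Top2a stretch is chr11:99024190-99024339, minus strand. The Mki67 stretch is chr7:135716380-135716529, minus strand. The Cdc20 stretch is chr4:118437344-118437493, minus strand. The Ube2c stretch is chr2:164769779-164769928, plus strand. The Kif11 stretch is chr19:37376232-37376381, plus strand. The Prc1 stretch is chr7:80294326-80294475, plus strand. Each lies directly upstream of the first exon. Among members with a promoter, a CHR was found in 14 of the 19 called higher in activated against resting Treg (73.7%) and in 19 of the 24 measured and not called there (79.2%). No promoter entry was listed for Ccna2, Cdc25c, Pbk, Aurkb, Incenp, Spc24, Tpx2, Kif20a, Shcbp1 and Smc4. Cdk1 and Top2a each held a CHR 4 bases after a CCAAT box, while in Kif11, Ube2c, Prc1 and Cdc20 the gap from a CCAAT box to the next CHR was 21, 23, 27 and 30 bases. Both CHR matches of Mki67 and 2 of the 3 of Top2a lay in the upstream part of the stretch.

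**Figure D1:**
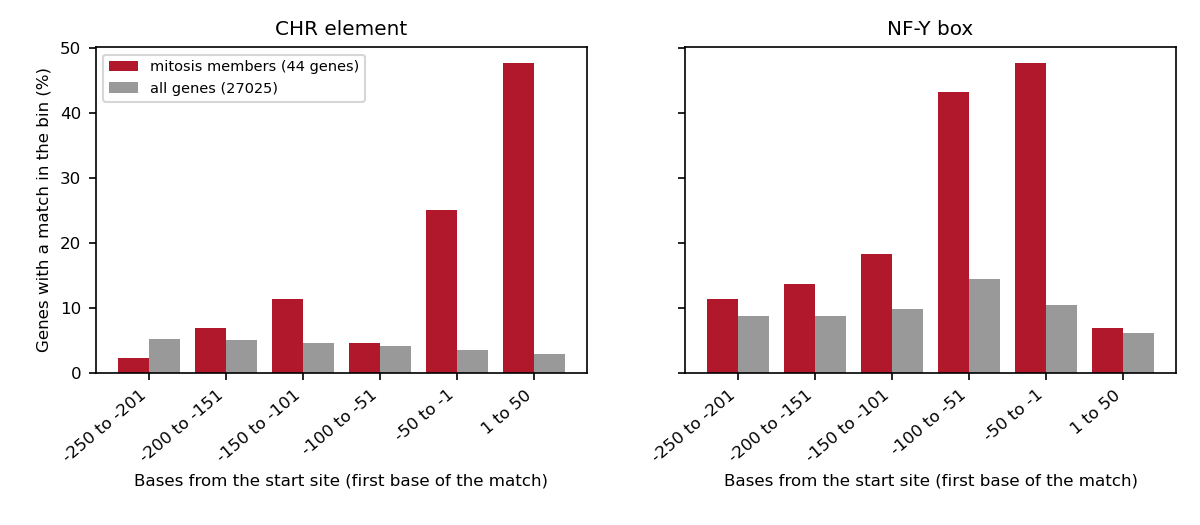
Share of genes (percent, vertical axis) with the first base of a match in each 50-base bin of the promoter (horizontal axis, bases from the transcription start), for the CHR (left) and the CCAAT box bound by NF-Y (right); red bars are the 44 members with a promoter and grey bars all 27025 genes. The CHR bars of the members reach 47.7% just after the start, where all genes are at 2.87%, and the CCAAT bars are highest within 100 bases before it.

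Stimulation raised mitotic genes broadly in sorted Treg. In activated against resting Treg, 24 of 53 members were higher and 0 lower at an adjusted p under 0.05 (limma, Benjamini-Hochberg over all 18194 genes), where 0.742% of all genes were called and 0.522% were higher. The median difference of the members was 2.33 log2 units against 0 for all genes, 50 of 53 were above 0, and 30 differed by 2 log2 units (4-fold) or more. Activated and resting arrays did not overlap for 46 members, with activated higher, as for 6.03% of all genes, and 0 members lay wholly below (6.94% of all genes). At an unadjusted p under 0.05 (11.5% of all genes, 6.47% lower), a further 23 members were higher and 1, Cdc25b, was lower. The median log2 level of the members per array was 8.18, 7.37 and 8.95 in activated Treg, 5.03, 5.50 and 6.06 in resting Treg, and 4.67 and 5.08 in Tconv, where the median of all genes lay between 5.60 and 5.85 on every array.

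The count of calls depended on single arrays more than the median difference did. Leaving out activated replicate 1 left 1 call, leaving out resting replicate 2 or 1 left 7 and 9, leaving out activated replicate 3 left 16, and leaving out either Tconv array, which enters only through the shared spread, left 8. The median difference stayed between 1.88 and 2.63 when any 1 array was left out. RNA quality was uneven across the groups: the 3′ minus 5′ log2 signal of Actb, which is high where RNA is degraded or copied short, was 5.87, 6.17 and 2.31 in activated Treg, 5.90, 2.50 and 2.67 in resting Treg and 1.24 and 1.54 in Tconv. On the 5 arrays with a value under 4, of which 1 was activated and was assumed to vary like the others, the median difference was 3.06 with 9 members called, and with arrays above and below that value as a block it was 2.62 with 35 called. With the mean of all probe sets of a gene in place of the brightest the median was 1.55, with 22 members called.

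**Figure D2:**
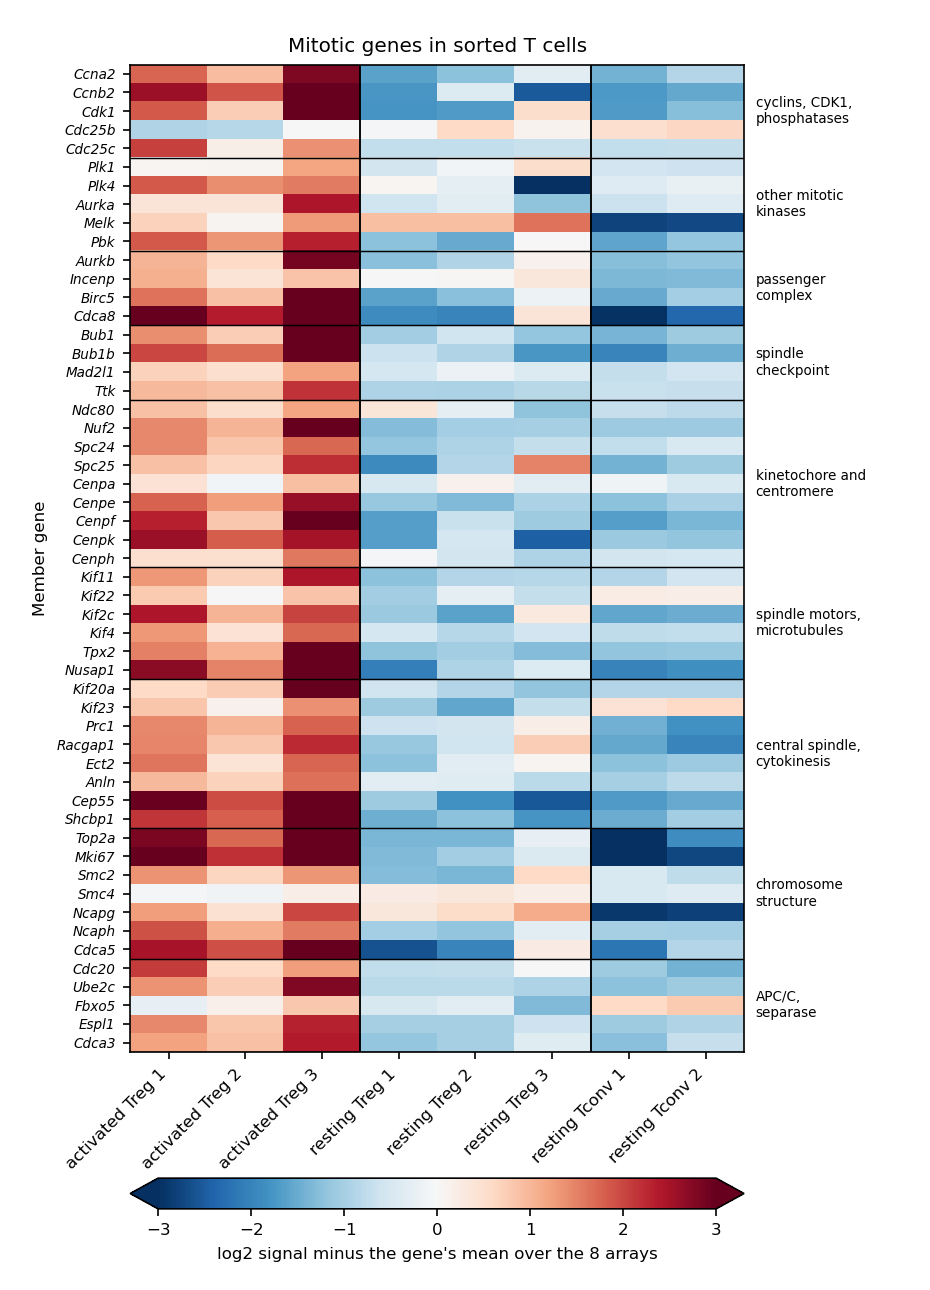
Log2 signal of each of 53 members (rows, grouped by role) on the 8 sorted T cell arrays (columns), as the deviation from that gene's mean over the arrays, with colours saturating at 3 log2 units on either side. The 3 activated Treg columns are red for nearly all rows, the resting columns are mostly blue, and Melk and Ncapg are red in resting Treg as well and dark blue in Tconv.

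Among cyclins, CDK1 and its phosphatases, 2 of 5 members rose, with a median difference of 2.89. Ccnb2, the B-type cyclin measured here, had log2 levels of 9.33, 8.65 and 10.25 in activated Treg, 5.03, 6.37 and 4.26 in resting Treg and 5.06 and 5.25 in Tconv. Every activated array lay above every resting one, and Ccnb2 rose by 4.19 (SE 0.55), an 18.3-fold change (limma adjusted p 0.0205). Ccna2, cyclin A2, rose by 2.89 (SE 0.49), from 5.49 ± 0.65 to 8.38 ± 0.94 (SD, n = 3 each). Cdk1, the kinase these cyclins activate, read 8.19, 7.09 and 9.71 against 4.59, 4.65 and 6.89. Resting replicate 3 came close to the lowest activated array, and the difference of 2.96 (SE 0.76) did not pass the threshold (limma adjusted p 0.151). The phosphatases that activate CDK1 differed from each other: Cdc25c had a difference of 1.91 (SE 0.40, limma adjusted p 0.0850), whereas Cdc25b, at 9.76, 9.82 and 10.66 in activated and 10.60, 11.27 and 10.78 in resting Treg, had the lowest value of all members, -0.81 (SE 0.28, limma adjusted p 0.282).

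Of the other mitotic kinases, Pbk alone passed the threshold, with a rise of 2.75 (SE 0.40). Plk4, which licenses centriole duplication, had the highest difference of this class, 3.0, with a wide error (SE 0.92). Its levels were 9.42, 8.97 and 9.12 in activated and 7.64, 7.28 and 3.59 in resting Treg, so that resting replicate 3 alone stood far below the others. Plk1, the Polo-like kinase of spindle assembly, read 6.38, 6.41 and 7.50 against 5.78, 6.25 and 6.85, and these groups overlapped. Its difference of 0.47 (SE 0.36, limma adjusted p 0.711) was among the smallest of the set. Melk, a kinase of proliferating cells, was at 8.36, 7.77 and 8.95 in activated and 8.59, 8.59 and 9.31 in resting Treg, a difference of -0.47 (SE 0.31).

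The chromosomal passenger complex corrects faulty attachments and directs cytokinesis. Its subunit borealin, Cdca8, had levels of 11.48, 10.55 and 11.37 in activated Treg and 6.31, 6.21 and 8.57 in resting Treg. Resting replicate 3 was more than 2 log2 units above the other resting arrays, and still below all activated ones, and Cdca8 rose by 4.10 (SE 0.60, limma adjusted p 0.0285). Birc5 (survivin) had a difference of 2.86 (SE 0.56) and the catalytic kinase Aurkb one of 2.18 (SE 0.58), neither past the threshold (limma adjusted p 0.0701 and 0.160). The scaffold Incenp was high everywhere, at 10.17 ± 0.33 and 9.51 ± 0.19 (SD, n = 3 each), with a difference of 0.66 (SE 0.20).

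In the spindle checkpoint, 2 of 4 members rose. Bub1b (BubR1), which inhibits the APC/C, went from 5.93, 5.67 and 4.81 to 8.58, 8.24 and 9.62, by 3.35 (SE 0.41, limma adjusted p 0.0151). The groups were more than 2 log2 units apart at their nearest arrays. Ttk, the kinase Mps1 that starts checkpoint signalling, rose by 2.24 (SE 0.32). Bub1 had a difference of 2.69 (SE 0.53, limma adjusted p 0.0735), and Mad2l1, with the lowest difference of the class, one of 1.16 (SE 0.20, limma adjusted p 0.0522).

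Kinetochore and centromere genes gave 5 calls among 9 members. Cenpk, of the constitutive centromere network, had levels of 8.61, 7.83 and 8.51 in activated and 4.35, 5.49 and 3.55 in resting Treg and rose by 3.85 (SE 0.45). Cenpf rose by 3.26 (SE 0.54), the motor Cenpe by 3.02 (SE 0.32), and Nuf2, of the NDC80 complex that grips microtubules, by 2.93 (SE 0.45). These 3 were at or below 5.54 on every resting Treg array and at or above 6.40 on every activated one. Cenpa, the histone variant that marks the centromere, was at 10.31, 9.78 and 10.78 against 9.39, 9.99 and 9.56. The groups overlapped, and the difference of 0.64 (SE 0.28) was the lowest of the class.

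Spindle motors and microtubule proteins contributed 4 calls among 6 members. Nusap1, which bundles spindle microtubules, had levels of 9.19, 7.97 and 9.52 in activated and 4.43, 5.56 and 6.06 in resting Treg, a rise of 3.55 (SE 0.49), and Tpx2, an activator of Aurora A, rose by 3.15 (SE 0.51). Kif22, a chromosome-bound kinesin, was lowest with 1.24 (SE 0.27, limma adjusted p 0.100).

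Central spindle and cytokinesis genes held the highest difference of all members. Cep55, which recruits the machinery of the final cut between daughter cells, was at 9.27, 8.26 and 9.99 in activated Treg, 5.24, 4.47 and 3.75 in resting Treg and 4.60 and 4.79 in Tconv. All activated arrays were at least 3 log2 units above all others, and Cep55 rose by 4.69 (SE 0.48), or 25.8-fold (limma adjusted p 0.00782). Shcbp1 rose by 3.82 (SE 0.33) with the lowest p of the set (limma adjusted p 0.00519). Anln, the actin-binding anillin, had the lowest difference of this class and still rose, by 1.61 (SE 0.26), and all 8 members of the class separated the groups.

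Chromosome structure genes split. Mki67, which coats mitotic chromosomes and encodes the Ki-67 proliferation antigen, was at 11.21, 10.13 and 11.54 in activated Treg, 6.63, 6.91 and 7.51 in resting Treg and 4.41 and 5.22 in Tconv. The 3 groups were fully separate in that order, and the rise of 3.94 (SE 0.40) was 15.3-fold (limma adjusted p 0.00782). Top2a, the topoisomerase that untangles sister chromatids, rose by 3.63 (SE 0.51), from 6.24 ± 0.65 to 9.88 ± 0.84 (SD, n = 3 each). Cdca5 (sororin) had a like difference, 3.92, but its resting arrays spread from 4.20 to 7.05, and it missed the threshold (SE 0.70, limma adjusted p 0.0533). Smc4, a condensin core subunit, was near the top of the array scale everywhere, at 13.49, 13.42 and 13.73 in activated and 13.78, 13.87 and 13.73 in resting Treg, with a difference of -0.24 (SE 0.14).

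In the class grouped around the APC/C and separase, 2 of 5 members rose, Espl1 (separase) by 2.40 (SE 0.33) and Cdca3 by 2.33 (SE 0.40). Cdc20, the activator that the checkpoint restrains, read 10.09, 8.58 and 9.24 against 7.26, 7.27 and 7.98. Its groups did not overlap, with a difference of 1.80 (SE 0.38, limma adjusted p 0.0842). Ube2c, the APC/C's ubiquitin-conjugating enzyme, had 2.47 (SE 0.44, limma adjusted p 0.0533), and its inhibitor Fbxo5 (Emi1), lowest in the class, had 0.94 (SE 0.33, limma adjusted p 0.300).

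**Figure D3:**
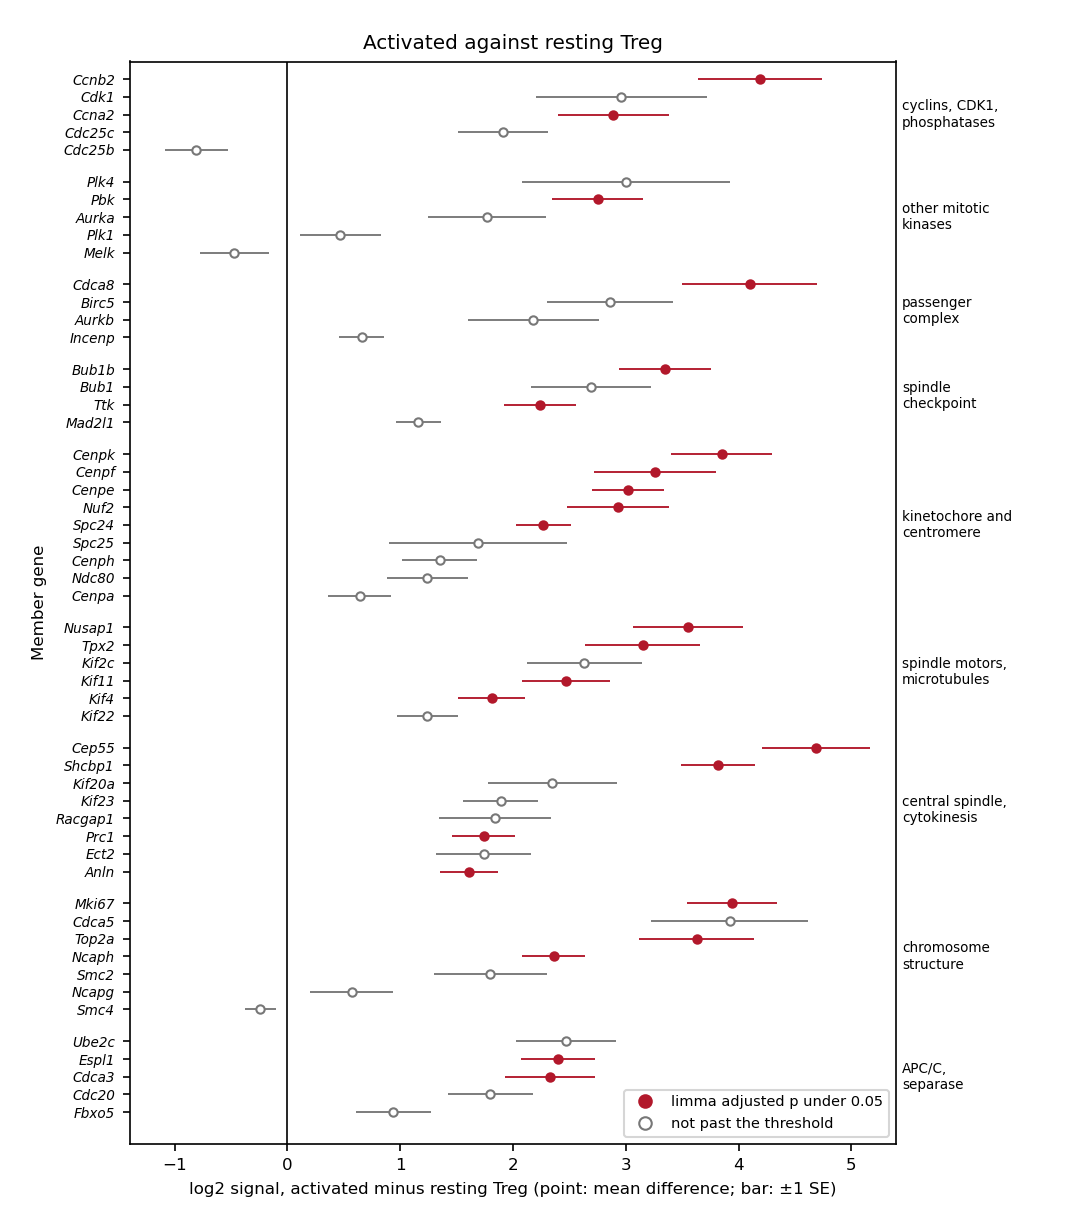
Mean difference in log2 signal between activated and resting Treg (horizontal axis) for 53 members grouped by role, with bars of 1 SE on either side from the limma fit; filled red points passed an adjusted p of 0.05 and open grey points did not. Calls are found in every role class, and Cdc25b, Melk and Smc4 lie left of 0.

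Other genes of the same processes gave calls in the same direction. Across 6 further lists, 11 of 100 genes were higher and 0 lower, with a median difference of 0.52. Of all genes 0.522% were called higher and 0.22% lower. The genes of those lists with the largest rises were Aspm (spindle poles, 3.44, SE 0.42), Cenpp (centromere, 3.01, SE 0.29), the cohesin protector Sgo1 (2.76, SE 0.36) and the condensin II subunit Ncapg2 (2.57, SE 0.30). The list of APC/C subunits, which also held Fzr1 and Ube2s, gave 0 calls in 14 genes with a median of -0.09. At an unadjusted p under 0.05 (limma, 11.5% of all genes) 1 of them was higher and 1 lower. Cohesin and its regulators gave 2 calls in 14 genes with a median of -0.11, and further spindle and cytokinesis genes 4 in 25 with a median of 1.29. The DNA replication list had 5 of 37 genes higher (median 0.62) and G1 regulators 1 of 15 (Ccnd2 rose by 1.39; median 0.13).

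Resting Treg and resting Tconv differed in few members. At the same threshold 5 of 53 were higher and 1 lower in resting Treg, where 5.51% of all genes were called, 3.86% higher and 1.65% lower. The median difference was 0.17 (0.01 for all genes), and 42 of 53 members lay within 1 log2 unit of 0. The arrays were fully separate for 13 members with resting Treg above (21.6% of all genes) and 4 with it below (20.4%). At an unadjusted p under 0.05 (17.9% of all genes, 7.39% lower) 8 members were higher and 3 lower. This comparison shares its resting Treg arrays with the one above. Melk was at 8.59, 8.59 and 9.31 in resting Treg and 4.89 and 4.97 in Tconv, a difference of 3.90 (SE 0.35, limma adjusted p 0.000545). Ncapg, a condensin I subunit, was at 7.11, 7.32 and 7.87 against 3.86 and 3.96, a difference of 3.52 (SE 0.41, limma adjusted p 0.00207). For both genes resting Treg lay with activated Treg, and only Tconv was low; both calls remained in all 16 alternative settings.

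Mki67 was higher in resting Treg than in Tconv by 2.20 (SE 0.45), Incenp by 1.47 (SE 0.22) and Smc4 by 0.68 (SE 0.16). Kif23, the motor subunit of centralspindlin, was lower, at 5.99, 5.49 and 6.35 against 7.49 and 7.65 (difference -1.63, SE 0.37, limma adjusted p 0.0426). It was as high in Tconv as in activated Treg, whose arrays read 7.90, 7.18 and 8.42. The other probe sets of these genes were mostly weaker: a second Ncapg probe set gave 1.49, the other Kif23 probe sets gave -0.38 and -0.14, and 1 of the 4 further Incenp probe sets gave -0.07. Of other mitotic genes 2 of 100 were higher and 3 lower, a share near that of all genes (3.86% and 1.65%), among them Cks2 (a CDK-binding subunit, 1.79, SE 0.31), Kif20b (1.51, SE 0.27), Stmn1 (a microtubule destabiliser, -2.10, SE 0.40) and Ckap5 (a microtubule polymerase, -1.52, SE 0.31). The count of called members was 2 without either Tconv array and 3 without resting replicate 2.

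Resting replicate 3 was the highest of the 3 resting Treg arrays for 31 members and the lowest for 16. Spc25, of the NDC80 complex, was at 4.65 and 5.68 on the other arrays and at 8.04 on this one, and Cdk1, Cdca8 and Cdca5 were high there too, while Plk4, Cep55 and Cenpk were low. The summed level of 9 MHC class II and dendritic cell markers in resting Treg ran from 9.29 to 11.52 and was highest on the same array; its part in the result was not tested. Without that array the median difference between activated and resting Treg was 2.44, and 27 members were called, of which 19 were among the 24.

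Activated Treg stood furthest from Tconv, a comparison in which cell type and stimulation differ together and which shares arrays with both above. Here 40 of 53 members were higher and 0 lower, where 9.7% of all genes were called, 5.93% higher and 3.77% lower. At an unadjusted p under 0.05 (21.6% of all genes, 10.2% lower) 48 members were higher and 1 lower. The median difference was 2.55 (0.02 for all genes), and the arrays did not overlap, with activated Treg higher, for 49 members and 21.4% of all genes, and 1 member, Cdc25b, lay wholly below (19.7%). All 24 members called against resting Treg were among the 40. Mki67 had the largest difference, 6.14 (SE 0.45), followed by Cdca8 with 5.60 (SE 0.67) and Top2a with 5.11 (SE 0.57). Cep55, Nusap1 and Ccnb2 followed with 4.48, 4.34 and 4.26, and Ncapg and Cdca5 with 4.09 and 4.0. Bub1b, Cenpf, Shcbp1, Cdk1, Cenpk, Melk and Kif2c lay between 3.97 and 3.35. Among other mitotic genes 31 of 100 were higher and 2 lower, led by Aspm (3.82), Cenpp (3.64), Cks2 (3.40) and Ncapg2 (3.13). Without Tconv replicate 1 the count of members was 13, and without Tconv replicate 2 it was 19.

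The labels of these groups fitted their markers: Foxp3, the Treg lineage factor, was higher by 6.44 (SE 0.16) in resting Treg and by 6.81 (SE 0.16) in activated Treg than in Tconv, and did not pass the threshold between the Treg groups (0.37, SE 0.14, limma adjusted p 0.347). Of 10 CD8 and NK markers Klrd1 was higher in Tconv than in resting and activated Treg (differences of -4.73, SE 0.43, and -6.69, SE 0.43), and Prf1 than in activated Treg (-1.65, SE 0.42). Of all genes 1.65% were called lower in resting Treg and 3.77% in activated Treg than in Tconv. The summed level of the CD8 and NK list was 12.15 to 12.19 in Tconv and 8.49 to 9.14 in Treg, while its median difference was -0.15 for resting and 0.01 for activated Treg. Against Tconv, 3 of the 9 markers of B cells passed the threshold as higher in resting Treg (Cd79b by 2.85, Ighm by 0.77 and Cd79a by 0.73), as did 3.86% of all genes. In activated Treg 2 passed as higher (Cd79b and Ighm), as did 5.93% of all genes. The summed level of the B cell list was 13.58 to 13.79 in Treg and 12.86 to 12.99 in Tconv. The part of these markers in the differences from Tconv was not tested.

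In the ligand experiment the deposited values of each Sema4a-Ig and IgG pair were centred on the pair, so only the difference within a pair can be read, and neither the level of a gene in KO against WT nor the loss of Nrp1 can be checked. Values below are log2 signal with Sema4a-Ig minus log2 signal with IgG, over 8 pairs per genotype. The WT pair 2 sample with Sema4a-Ig carries a WT title and a floxed genotype label and was kept as WT; without that pair 4 members were called in WT instead of 5.

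In WT Treg, Sema4a-Ig lowered a few mitotic genes by a small amount, with nearly all others leaning the same way. At an adjusted p under 0.05 (limma), 5 of 52 members were lower and 0 higher, where 5.79% of all genes were called, 2.88% lower and 2.91% higher. The median difference was -0.25 (-0.01 for all genes). The mean difference was below 0 for 50 of 52 members and for 53.9% of all genes, and 31 members were lower at an unadjusted p under 0.05, as were 12.7% of all genes (21.1% in either direction). In 13 members every one of the 8 pairs was lower, as in 4.36% of all genes.

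Cenph, of the constitutive centromere network, had the largest fall. Its pair differences ran from -1.64 through a median of -0.49 to -0.03, with all 8 pairs below 0, and pair 3 the lowest. It fell by 0.54 (SE 0.13), to 0.688 of the IgG level (limma adjusted p 0.0208). Aurkb ran from -1.28 through -0.47 to -0.09 and fell by 0.52 (SE 0.13, limma adjusted p 0.0248). For Aurkb pair 1 was the lowest and pair 3 next, and all 8 pairs were below 0. Its partner Incenp, from -0.88 through -0.37 to 0.00, fell by 0.36 (SE 0.10, limma adjusted p 0.0402).

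Kif4, the chromokinesin that organises the central spindle, ran from -1.32 through -0.42 to -0.01 and fell by 0.46 (SE 0.13, limma adjusted p 0.0346). Cdk1 ran from -0.78 through -0.30 to -0.01 and fell by 0.41 (SE 0.10, limma adjusted p 0.0230). Its first 3 pairs were within 0.03 of each other, at -0.75, -0.77 and -0.78, and the other 5 lay between -0.32 and -0.01. The further members lower in all 8 pairs were Plk1, Aurka, Melk, Kif11, Kif23, Ect2, Cdc20 and Ube2c, with means from -0.24 (Kif11) to -0.49 (Kif23), and these did not pass the threshold.

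By role, the passenger complex gave 2 calls in 4 members (median -0.38), and cyclins and CDK1, the kinetochore class and the spindle motors gave 1 call each in 5, 8 and 6 members (medians -0.17, -0.23 and -0.28). The remaining classes gave 0 calls by limma. At an unadjusted p under 0.05, where 12.7% of all genes were lower, all 5 of the other mitotic kinases were lower (median -0.36). So were 2 of 4 checkpoint genes, 5 of 8 cytokinesis genes, 3 of 7 chromosome structure genes and 2 of 5 genes of the APC/C and separase class. After Cenph and Aurkb the lowest values were those of Plk4 (SE 0.15), Kif2c (SE 0.16) and Kif23 (SE 0.17), each at -0.49. Plk1 was at -0.36 (SE 0.12, limma adjusted p 0.0721). Bub1 was at -0.31 (SE 0.11), Cdc20 at -0.25 (SE 0.13) and Birc5 at -0.19 (SE 0.10).

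Members with large activation differences had both small and larger ligand differences. Top2a was at -0.22 (SE 0.08), Ccnb2 at -0.17 (SE 0.10), Mki67 at -0.15 (SE 0.08) and Cep55 at -0.25 (SE 0.10), none past the threshold. Cdca8 was at -0.41 (SE 0.14), Plk4 at -0.49 (SE 0.15), Ccna2 at -0.37 (SE 0.11) and Cdca5 at -0.36 (SE 0.12), likewise not past it. Across the 52 members the activation difference and the WT ligand difference had a Pearson r of -0.12 and a Spearman rho of 0.03; these are genes of 1 co-varying set and not replicates, so the values are a description. Cdc25b (0.08, SE 0.11), Smc4 (0.07, SE 0.07) and Cdc25c (-0.02, SE 0.10) were the highest of the set, and Cdc25b and Smc4 were also 2 of the 3 members below 0 on activation.

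**Figure D4:**
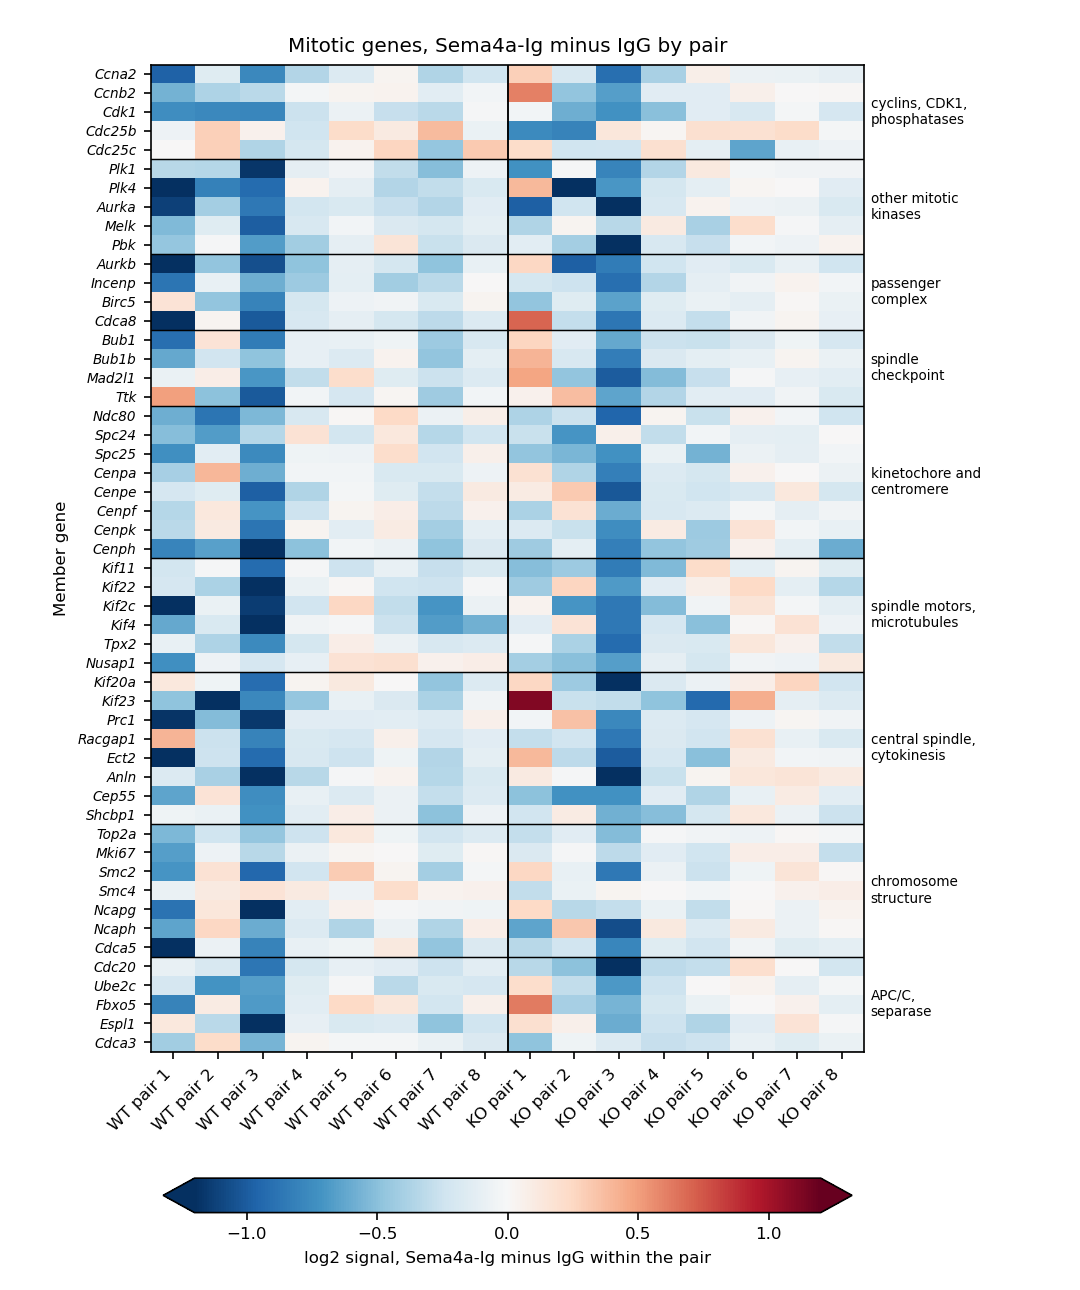
Sema4a-Ig minus IgG difference in log2 signal for 52 members (rows, grouped by role) in each of the 16 pairs (columns, 8 WT then 8 KO), with colours saturating at 1.2 log2 units. WT pairs 1 and 3 and KO pair 3 are blue for most rows, the other pairs are pale, and Smc4 and Cdc25b differ from the rows around them.

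The WT difference was uneven across pairs. The median of the members in WT pairs 1 to 8 was -0.53, -0.15, -0.79, -0.15, -0.04, -0.05, -0.31 and -0.10. Pairs 3 and 1 were lowest and held the lowest value of 27 and 19 of the 52 members, and every pair median was below 0. Without pair 1, or without pair 3, in WT alone, 0 members were called by limma, and without pair 7 there were 2. Without the replicate 3 pairs of both genotypes 1 member, Cenph, was called (-0.38, limma adjusted p 0.0435), where 2.52% of all genes were called, 0.907% lower and 1.61% higher; the median was then -0.18, 49 of 52 members were below 0, and 24 were lower at an unadjusted p under 0.05 (9.93% of all genes, 17.3% in either direction). The other 4 members called with all pairs had differences of -0.45 (Aurkb), -0.35 (Cdk1), -0.34 (Kif4) and -0.33 (Incenp), with limma adjusted p from 0.0610 to 0.0728.

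Among other mitotic genes 5 of 94 were lower and 0 higher in WT (median -0.19), where 2.88% of all genes were lower; the cohesin list had a median of 0.02. The 5 were Ccnf (cyclin F, -0.54, SE 0.14), Kif18a (a kinesin that limits chromosome swings, -0.53, SE 0.14), Mybl2 (B-Myb, a partner of MuvB at CHR promoters, -0.50, SE 0.13), Hmmr (-0.39, SE 0.11) and Cenpn (-0.38, SE 0.10). DNA replication genes were below 0 in 37 of 37, with 2 called, Cdc6 (-0.58, SE 0.15) and Rrm1 (-0.35, SE 0.10), and a median of -0.29. Of 15 G1 regulators 2 were higher (2.91% of all genes), the CDK inhibitors Cdkn1b (p27, 0.47, SE 0.09) and Cdkn1c (0.30, SE 0.09), with a list median of 0.02. Without replicate 3 the other mitotic genes had 0 calls in WT and a median of -0.12. At an unadjusted p under 0.05 (limma) 26 of them were lower and 1 higher, where 9.93% of all genes were lower. The replication median was -0.69 in WT pair 1, -0.79 in WT pair 3 and -0.73 in KO pair 3, the pairs in which the members were lowest.

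Cell type markers differed as well. Of 16 myeloid markers 3 were higher with Sema4a-Ig in WT, where 2.91% of all genes were higher at the same threshold. These were Lyz2 (0.81, SE 0.15), Tyrobp (0.39, SE 0.11) and Ctss (0.37, SE 0.08). The summed level of the list was higher in every WT pair, by 0.03 to 0.73, most in pair 3. In KO it ran from -0.06 to 0.46 with 0 of 16 called. The unweighted mean difference of the same markers was below 0 in WT pairs 4 (-0.22) and 5 (-0.07). This mean was highest in WT pair 7 (0.54), with 0.44 in pair 3 and 0.15 in pair 1, and in KO it ran from -0.22 to 0.37. The summed level of 4 erythroid markers was also higher in every WT pair, by 0.13 to 1.23, and most in pair 3. In KO it ran from -1.28 to 0.78. That of 5 T cell markers ran from 0 to 0.44 in WT and from -0.03 to 0.15 in KO, highest in pair 3 of both genotypes. That of 6 Treg markers ran from -0.01 to 0.40 in WT and from -0.05 to 0.08 in KO. Of these 6, 2 were called higher in WT (2.91% of all genes). That of 11 CD8 and NK markers ran from -0.91 to 0.21 in WT and from -0.96 to 0.09 in KO. It was highest in pair 1 of both genotypes. Of these 11 markers 1 was called lower in WT (2.88% of all genes), and of 9 B cell markers 1 was called higher (2.91%). With the pair difference of the mean myeloid marker as a covariate 0 members and 19 genes in all were called in WT, and the member median was -0.20 against -0.25 without it; the part of the other markers was not tested.

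In KO Treg no gene passed the threshold, member or other (limma; 0% of 17097 genes called, with 10.5% at an unadjusted p under 0.05). All 52 members had a mean difference below 0, as did 55% of all genes, with a median of -0.18 (-0.02 for all genes), and 18 were lower at an unadjusted p under 0.05, against 6.43% of all genes. Aurka (-0.39, SE 0.14), Cenph (-0.37, SE 0.13) and Cdc20 (-0.36, SE 0.13) had the lowest values, with limma adjusted p from 0.389 to 0.396. Aurka's pairs ran from -1.43 through -0.18 to 0.04 and those of Cdc20 from -1.47 through -0.30 to 0.20, each lowest in pair 3. Cdk1, Spc25, Cdca5 and Cdca3 were below 0 in all 8 pairs, as were 1.66% of all genes. Smc4 (-0.03) was the highest, followed by Ccnb2, Kif23 and Fbxo5, each at -0.09.

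In KO, replicate 3 stood apart from the other pairs. The pair medians in KO were -0.13, -0.24, -0.76, -0.18, -0.19, -0.01, -0.02 and -0.09, and pair 3 held the lowest value of 41 of 52 members. Without the replicate 3 pairs the KO median was -0.10, 51 of 52 members were below 0 and 8 were lower at an unadjusted p under 0.05, against 4.37% of all genes (7.46% in either direction). Over all genes the differences of the WT and KO replicate 3 pairs had a correlation of 0.37 across genes, where WT and KO pairs of unlike replicates had a median of 0.07. For replicates 4 to 8, whose array codes are neighbours in the same way, it was 0.15, 0.08, 0, 0.01 and 0.07.

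**Figure D5:**
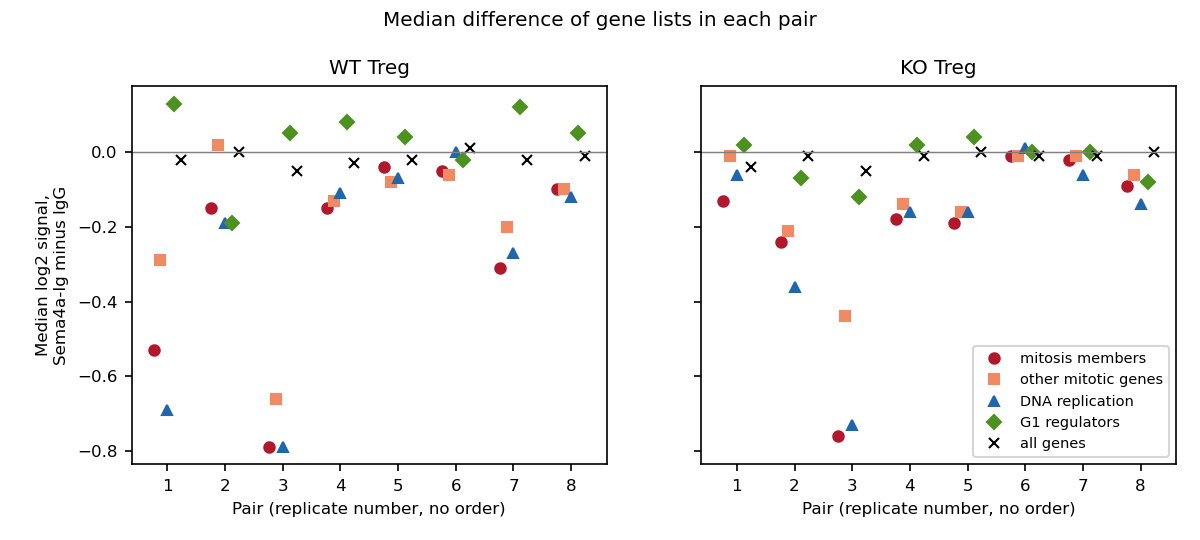
Median Sema4a-Ig minus IgG difference (log2 signal, vertical axis) of 5 gene lists in each WT pair (left) and KO pair (right), with replicate numbers on the horizontal axis. The member medians are below 0 in all 16 pairs and lowest in pair 3 of both genotypes and in WT pair 1; the DNA replication medians are low in the same 3 pairs and reach 0.01 in KO pair 6, while all genes stay between -0.05 and 0.01.

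No difference in the ligand effect between genotypes was detected. The test of WT minus KO called 0 of 52 members and 0% of 17097 genes by limma, and 0 members at an unadjusted p under 0.05, where 5.94% of all genes had one (2.5% lower). The median of the members was -0.08, with 33 of 52 lower in WT than in KO. For the 5 members called in WT the differences were -0.28 (Kif4, 95% interval -0.67 to 0.11), -0.21 (Aurkb, -0.62 to 0.20), -0.17 (Cenph, -0.58 to 0.24), -0.13 (Incenp, -0.43 to 0.17) and -0.11 (Cdk1, -0.41 to 0.19). The intervals use the 14 residual degrees of freedom, which makes them wider than limma's moderated test would give. Each holds 0 and reaches the WT difference of its gene, for Cdk1 only at its rounded limit. The largest differences were those of Kif23 (-0.41, -0.92 to 0.10) and Prc1 (-0.31, -0.70 to 0.08), so a difference between genotypes as large as the effect itself could not be told from none at this number of pairs. Without the replicate 3 pairs the median was again -0.08, 0 members were called and 1, Anln, had an unadjusted p under 0.05, as did 6% of all genes (2.71% lower).

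Each member is represented by 1 probe set. In activated against resting Treg, 33 members had 57 further probe sets, and 3 of those had the opposite sign, 1 of a called member: a dim Cdca3 probe set gave -0.03 where the one used gave 2.33. A like sign did not mean a like size. Further probe sets gave 0.39 for Cep55 (4.69 with the one used), 0.08 and 0.40 for Cenpk (3.85) and 0.09 for Anln (1.61). Others came closer, such as 3.74 for Ccna2 (2.89) and 3.87 for Cdca8 (4.10). In WT the 25 members with 32 further probe sets gave 4 of opposite sign, 1 of them of a called member, Incenp, at 0.14.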

How the data were processed

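Expression was measured on 8 arrays of sorted T cells and 32 arrays of the ligand experiment. The deposited values are log2 signals that the authors made by RMA in Partek 6.6, per the submitters' processing notes; no genome build enters. In the ligand table the mean of each Sema4a-Ig and IgG pair had been removed (range of pair means at most 6e-05), so 16 pair differences were used. Pairs follow neighbouring array codes. Each gene was its probe set of highest mean; probe sets of several genes or none were left out. All genes were fitted with limma 3.58.1 (R 4.3.3): 3 group means for the sorted arrays, with 5 residual degrees of freedom, and a mean difference per genotype for the pairs, with 14. P-values were two-sided and Benjamini-Hochberg adjusted over all genes, with a threshold of 0.05. The fits were tested on simulated data with independent genes. There the WT ligand fit called 13.1% of planted changes of 0.25 log2 units, 56.1% of 0.5 and 100% of 1. The fit of activated against resting Treg called 41.5% of planted changes of 1 log2 unit and 79.8% of 2. The number of arrays limits the precision. Groups follow the sample titles.

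The members and lists were chosen with earlier results of these data known. Named genes were a core of 10 (Ccnb1, Ccnb2, Cdk1, Cdc20, Plk1, Aurkb, Bub1, Top2a, Mki67, Birc5), the highest and lowest activation difference per role, the called members (the 15 largest where over 15), up to 4 called genes of other lists and, with the ligand, the 3 highest and lowest members; further names were chosen after their values were seen. Alternatives covered probe set choice, dim genes, normalization, weights, variance trend, RNA quality, covariates, pairing and leaving out samples. Promoters came from RefSeq (GRCm38.p6), searched with Python 3.11.15.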

Additional observations from a re-analysis of the deposited data

Results flagged for a closer look

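In KO Treg, the median Sema4a-Ig minus IgG difference of the members in replicate 3 was -0.76, far below the other 7 pairs, which lay between -0.24 and -0.01. Its gap to the nearest pair was 0.688 of the whole range, above Dixon's 95% critical value of 0.526 for 8 values. Chance alone passes that limit in about 1 of 20 groups where no pair was picked beforehand. Replicate 3 had been picked before for reporting with and without it, so this value is a description only.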

How the results depend on the processing

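The member median kept its sign in every comparison under every alternative run, and no called member changed sign in its comparison. Some uncalled members did: without replicate 3, Anln in KO went from -0.16 to 0.04 and Cdc25c in WT from -0.02 to 0.03. Single other probe sets could have the opposite sign. For activated against resting Treg, 24 members were called; the count was 9 on arrays with an Actb 3′ minus 5′ signal under 4, 8 with only the 2 groups in the fit, and 1 to 27 when 1 array was left out. For resting Treg against Tconv (6 called) leaving out 1 array gave 2 to 8, and for activated Treg against Tconv (40 called) 13 to 44. For Sema4a-Ig in WT, 5 members were called; the count was 18 among genes above the median in mean signal, 16 with an intensity trend, 3 with array weights, 3 with WT pairs alone, 1 without both replicate 3 pairs, 0 with the myeloid covariate, and 0 to 12 when 1 pair was left out. The causes of these shifts were not tested. Some alternatives also fit fewer samples or genes. In KO and for WT minus KO, leaving out any 1 pair gave 0 calls.

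The main ligand fit takes differences within pairs, a replicate block. With no replicate block, 36 members were called in WT and 17 in KO. Since the pair means had been removed before deposit, the 32 arrays are not independent there, and those counts overstate the evidence. Replicate numbers of the sorted arrays pair no samples that the labels tie together.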
